A study of Homo sapiens with 19 samples.

Results

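The regions described here are 2623 RB binding intervals of C4-2 cells that had no counterpart in any other interval list of the study. They were chosen by measured values, namely their presence in the C4-2 RB list and the absence of an overlap of at least 1 base with the VCaP RB list and with each of the 8 V5 lists. They made up 28.7% of the 9146 C4-2 RB intervals. Of those 9146, 40.7% had no VCaP RB interval and 74.6% had no V5 interval in any of the 8 lists. Since the rule set these shares, they are given as a description. The other C4-2 RB intervals were 1103 C4-2-only sites with V5, 1220 VCaP-shared sites with V5 and 4200 VCaP-shared sites without V5.

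RB was mapped by ChIP-seq in C4-2 cells (2 libraries) and VCaP cells (1 library), both untreated established prostate cancer lines. C4-2 is a castration-resistant line derived from LNCaP, and VCaP was derived from a vertebral metastasis. V5-tagged E2F1 was mapped in C4-2 lines with a tetracycline-controlled wild-type (WT) E2F1 or its K185R mutant, in which a lysine is replaced by arginine. Each line was untreated, given 0.25 ug/ml doxycycline for 3 days, given 50 uM GSK2879552 for 24 hours, or given both in that order, with 2 libraries for each of these 8 groups. All cells were grown in medium with 5% charcoal-stripped serum, which is poor in androgens. GSK2879552 inhibits the lysine demethylase LSD1. The names of the V5 lists read siNTC and siRB where the treatment labels read untreated and doxycycline, and the groups below follow the labels. Whether tagged E2F1 was present without doxycycline is not given in the sources used here, so absence of a V5 interval is absence from a list and not of E2F1.

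RB is a pocket protein that is brought to DNA mainly by E2F transcription factors. In its hypophosphorylated form it holds E2F1 and related activators in check at genes for DNA replication and cell division, and phosphorylation by cyclin-dependent kinases releases them. RB also recruits chromatin regulators and has been linked to the silencing of repeated DNA. Loss of RB1 is a feature of advanced castration-resistant prostate cancer.

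Each group is represented by 1 list of intervals, so no value below carries an error between libraries and no test between groups could be made. Library totals are not in the lists. As a stand-in for depth, the lowest common local background divided by the smallest interval width came to 8.21 reads per kilobase for RB in C4-2 cells, against 2.98 for VCaP cells. Intervals in brackets after a share are 95% Wilson intervals. They cover counting error over intervals only, and reads from PCR without molecular identifiers are not independent molecules. Genes at the sites are not named and base sequences are not shown, because the coordinates are in hg19 and no genome or annotation of that build was used here.

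The C4-2-only sites without V5 were weak members of the C4-2 RB list. Their median fold enrichment, the authors' ratio of reads at the peak summit to the local background, was 5.26 (quartiles 4.66 and 6.03). The median was 6.13 in C4-2-only sites with V5, 6.48 in VCaP-shared sites with V5 and 5.80 in VCaP-shared sites without V5. The summit held a median of 12 reads (quartiles 11 and 15), against 20, 19 and 14 reads in the other classes in the same order. In 650 of the 2623 sites (24.8%) the summit rested on 10 or fewer reads, against 15.5% of all C4-2 RB sites. A fold of at least 10 was reached by 42 sites (1.60%), against 5.45% of all C4-2 RB sites. These values come from the list that the rule reads, so no test applies to them.

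Along the C4-2 RB list, the share of these sites was higher where peaks were weaker. The authors' −log10 q, which grows with the strength of a peak, was used to cut the list into 10 bins of like size. In the weakest bin, 435 of 915 sites (47.5%) were C4-2-only without V5, against 60 of 914 (6.56%) in the strongest bin. The 2 classes with V5 went the other way. C4-2-only sites with V5 made up 4.81% of the weakest bin and 29.7% of the strongest, and VCaP-shared sites with V5 4.59% and 33.7%. The other class without V5, shared with VCaP, stayed between 30.1% and 51.6% in every bin. The weakest named site, on chromosome 1 at 9294875 to 9295014, had 8 summit reads, a fold of 3.49 and a −log10 q of 1.30.

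**Figure D1:**
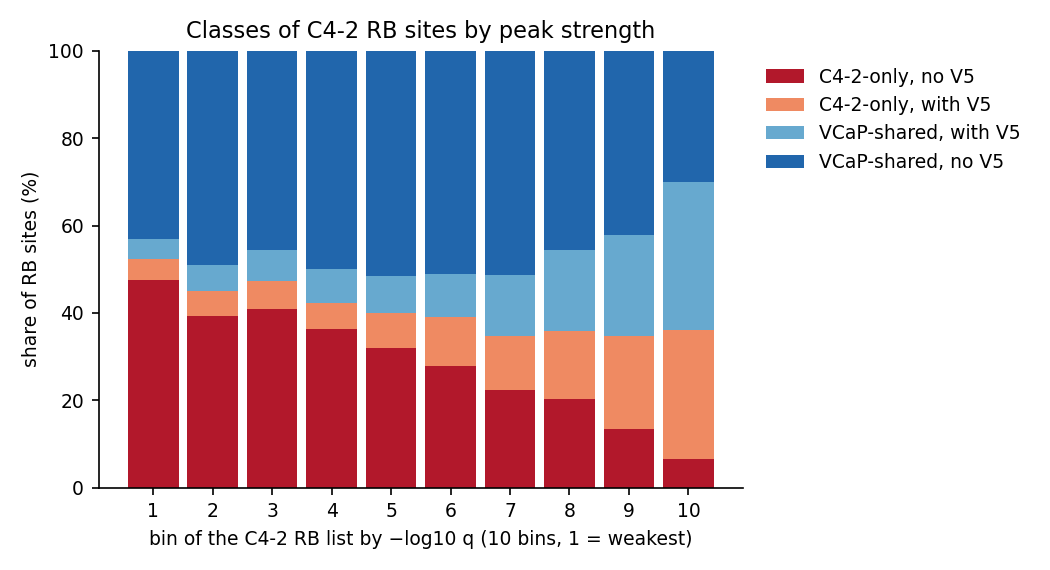
Share of each class of RB sites (vertical axis, percent) in 10 bins of the C4-2 RB list ordered by −log10 q (horizontal axis, 1 is weakest). C4-2-only sites without V5 (dark red) made up 47.5% of the weakest bin and 6.56% of the strongest.

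Some of the sites were nevertheless among the stronger RB peaks. The highest −log10 q, 44.9, belonged to an interval on chromosome 8 at 144183219 to 144183543, with 45 reads at the summit and a fold of 18.5. The nearest VCaP interval was 30500 bases away, and the nearest V5 interval, in the WT list with doxycycline, 5695 bases. The next, on chromosome 5 at 177008591 to 177008854, had 42 reads and a fold of 17.9, with a V5 interval at 3335 bases and a VCaP interval at 9973 bases. Another, on chromosome 10 at 103124560 to 103124721, had 31 reads and a fold of 17.5 on a local background of 0.83 reads. The lowest background common in the list, called its floor here, was 0.821 reads. On chromosome 19, the interval at 591599 to 591887 (40 reads, fold 14.9) had a VCaP RB interval only 1042 bases away. The interval on chromosome 8 at 8067540 to 8067813 (40 reads, fold 12.5) had none of the 9 other lists within 10 kb. Among the 10 sites highest in −log10 q, only the one on chromosome 2 at 133025675 to 133025945 had an interval of another list within 1 kb.

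The remaining strong sites were of a similar kind. On chromosome 8 at 54790426 to 54790678, 38 reads gave a fold of 12.8. On chromosome 19 at 13122755 to 13123095, 40 reads gave a fold of 11.8. On chromosome 13 at 19174023 to 19174396, 38 reads gave a fold of 12.0 at 0.146 Mb from the longest interval-free stretch of that chromosome. On chromosome Y at 10037755 to 10037918, 40 reads gave a fold of 15.4. That site lay in a group of 7 C4-2-only sites without V5 within 100 kb, and 4 other lists had an interval within 10 kb. The site on chromosome 2 named above had 83 reads, but its local background of 14.3 reads was 17.5 times the floor, and its fold was 5.48.

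The sites were also narrow. Their median width was 136 bases, against 146 bases in C4-2-only sites with V5, 230 bases in VCaP-shared sites with V5 and 174 bases in VCaP-shared sites without V5. Of them, 458 (17.5%) had the smallest width of the list, 100 bases, against 9.96% of all C4-2 RB sites. Together they covered 401446 of the 1744568 bases in the list. Part of the difference in width remained where summit reads were alike. Among sites of low background (under 10 times the floor) with 11 to 15 reads, the median width was 136 bases (quartiles 109 and 176, 1353 sites), against 157 bases (quartiles 121 and 214, 2039 sites) in VCaP-shared sites without V5. With 21 to 40 reads it was 169 bases (169 sites), against 147 bases in C4-2-only sites with V5 and 269 bases in VCaP-shared sites without V5. Narrow width at high reads was thus seen in both C4-2-only classes. A wider interval offers more bases for an overlap, so width is not independent of how the sites were chosen. The widest, on chromosome 11 at 122526793 to 122527410, spanned 618 bases with 13 reads at the summit and a fold of 5.56. The next widest spanned 489 bases on chromosome 9 at 115095826 to 115096314, and another spanned 481 bases on chromosome 3 at 174158626 to 174159106.

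**Figure D2:**
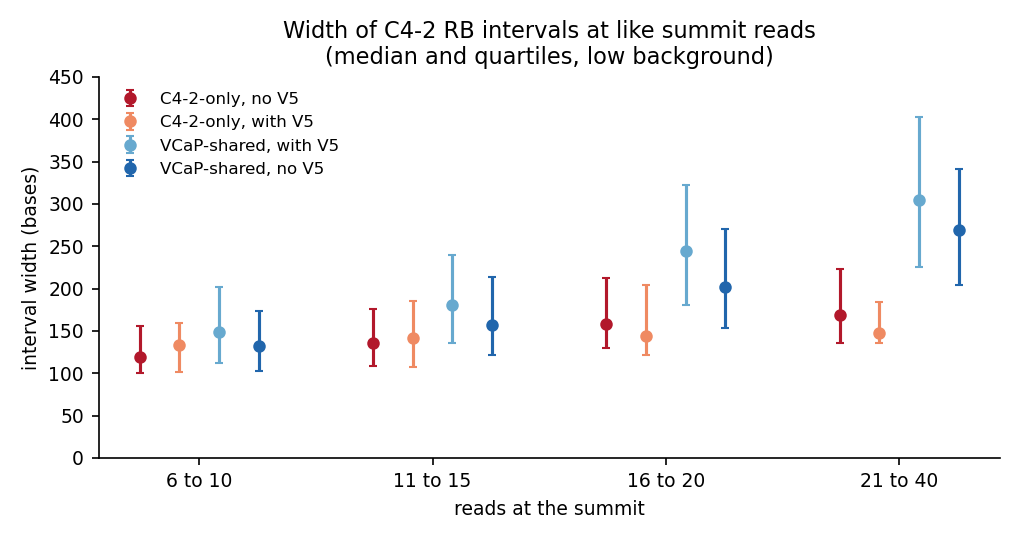
Interval width in bases (vertical axis, points are medians and bars quartiles) against the reads at the summit (horizontal axis) for 4 classes of C4-2 RB sites of low background. At 21 to 40 reads the C4-2-only sites without V5 had a median of 169 bases and the VCaP-shared sites without V5 269 bases.

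Many sites absent from the VCaP list lay beside a VCaP interval. Of the 2623 sites, 672 (25.6%, 24.0 to 27.3) had a VCaP RB interval within 1 kb without overlapping it, and 335 (12.8%) had one within 200 bases. Among C4-2-only sites with V5 the share within 1 kb was 18.4% (16.2 to 20.8). For the 672 sites the median gap was 201 bases (quartiles 62.8 and 416). At 284 of them the neighbouring VCaP interval overlapped another RB interval of C4-2, so that the site lay beside a shared one. At the other 388 the VCaP neighbour overlapped no C4-2 RB interval at all. The 654 VCaP intervals concerned had a median of 13 summit reads and a fold of 5.44, against 12 reads and 5.50 for all 17026 VCaP intervals. The 5134 VCaP intervals that overlapped a C4-2 RB site, some of which are among the 654, had 16 reads and 6.49. The edge of the rule lay within this range. In all, 48 sites had an interval of another list within 10 bases, and 6 of them abutted one.

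Sites at the limit of the rule were named on both sides. Inside it, 3 of the 6 sites that abutted an interval of another list are described. Outside it, only C4-2-only sites with V5 were eligible, so their overlap with a V5 interval was fixed by the choice. Inside, a site with 12 summit reads and a fold of 4.56, on chromosome 1 at 9883972 to 9884168, abutted a VCaP interval. The same held for an interval with 10 reads and a fold of 3.96 on chromosome 1 at 184724151 to 184724288, and for one with 14 reads and a fold of 4.78 on chromosome 10 at 99094384 to 99094517. Outside, the C4-2-only site on chromosome 11 at 71934986 to 71935096 (11 reads, fold 4.48) shared 2 bases with a V5 interval. Those on chromosome 16 at 32198762 to 32198861 (14 reads, fold 4.90) and on chromosome 3 at 146262148 to 146262342 (14 reads, fold 5.88) shared 5 bases.

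V5 intervals were seldom within 1 kb. Any of the 8 V5 lists had an interval within 1 kb at 386 of the 2623 sites (14.7%, 13.4 to 16.1), against 462 of the 4200 VCaP-shared sites without V5 (11%, 10.1 to 11.98). Away from the interval-free stretches described below, these shares were 12.7% and 10.9%. Of the 386 sites, 63 had a high local background (at least 10 times the floor), as did 83 of all 2623. Away from the stretches, 17 of the 2386 C4-2-only sites without V5 and 12 of the 4093 VCaP-shared sites without V5 still had one. Within 10 kb, 71.4% of all the sites had a V5 interval, against 70.5% of all VCaP-shared sites without V5. The shares for single lists depend on the lengths of the lists. These ran from 2805 intervals in WT cells under GSK2879552 to 64025 in WT cells under doxycycline. The untreated K185R list held 55681 intervals and the K185R list under doxycycline 22328. Shares are therefore compared here between the 2 classes within a list. Away from the same stretches, the shares for single lists were higher in C4-2-only sites in each of the 8 lists. In untreated K185R cells 4.69% of the C4-2-only sites had a V5 interval within 1 kb and 2.69% of the VCaP-shared sites. Under doxycycline the C4-2-only sites had 2.31% and the VCaP-shared sites 1.17%, and under GSK2879552 2.14% and 1.002%. Under the combination the shares were 0.838% (20 of 2386 sites) and 0.220% (9 of 4093 sites). In untreated WT cells the C4-2-only sites had 3.27% and the VCaP-shared sites 2.003%, under doxycycline 4.53% and 4.35%, under GSK2879552 2.43% and 1.69%, and under the combination 3.35% and 2.59%. Both classes lack V5 by rule, so these are intervals beside the site and not at it. The difference has no replicate check and was not tested.

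**Figure D3:**
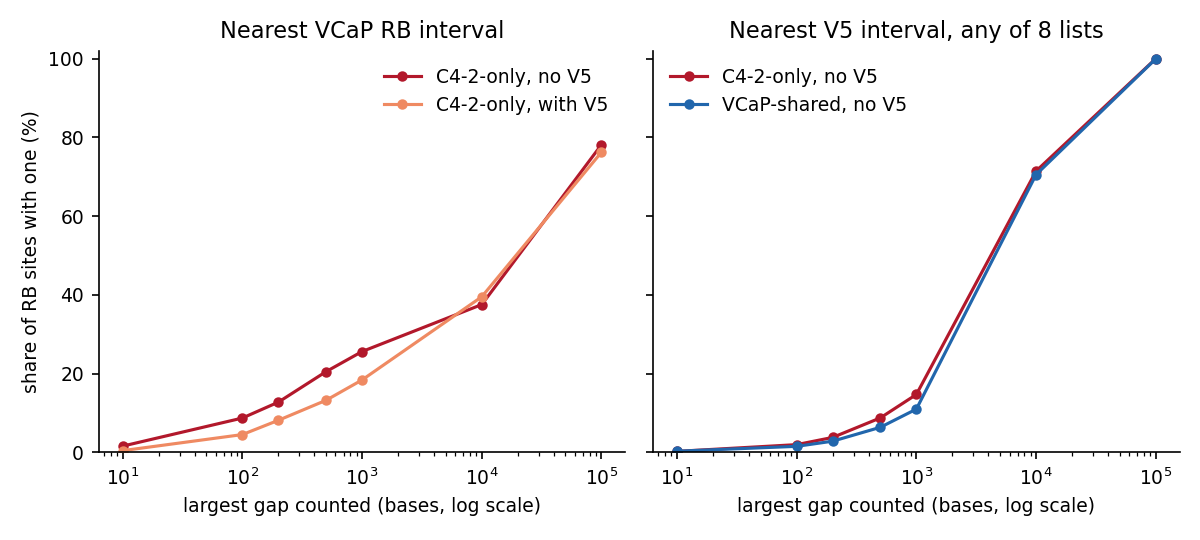
Cumulative share of RB sites (vertical axis, percent) with an interval of another list within a given gap (horizontal axis, bases, log scale), for the VCaP RB list (left) and the 8 V5 lists together (right). C4-2-only sites without V5 (dark red) had a VCaP interval within 1 kb in 25.6% of cases and a V5 interval in 14.7%.

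Most sites had no interval of another list within 1 kb, but 80.4% had one within 10 kb. None of the 9 other lists had an interval within 1 kb at 1718 sites (65.5%), and none within 10 kb at 515 sites (19.6%). The 515 isolated sites had a median fold of 5.37 and a median of 12 summit reads, and none had a high local background (at least 10 times the floor). Of these, 444 also had no further C4-2 RB interval within 10 kb. The most isolated site was 87109 bases from any interval of another list. Among C4-2 RB intervals themselves, 553 of the 2623 sites (21.1%) had a neighbour within 1 kb, against 34.0% of C4-2-only sites with V5 and 19.1% of VCaP-shared sites without V5. The neighbour was another C4-2-only site without V5 in 218 cases, a VCaP-shared site without V5 in 195, a C4-2-only site with V5 in 78 and a VCaP-shared site with V5 in 62. Neighbouring intervals may be parts of 1 bound region, so the sites are not all independent.

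The sites were also placed along the chromosomes. For each chromosome except the mitochondrial one, the longest stretch free of intervals in all 10 lists was found. These stretches spanned 3.0 to 30.002 Mb, and on 5 chromosomes (13, 14, 15, 21 and 22) they began at the first base. In hg19 the assembly gaps of centromeres and their heterochromatin are of this kind, and the DNA beside them is rich in satellite repeats and duplicated segments. On chromosomes 21 and Y a second stretch of 3.15 and 3.01 Mb also occurred, so the longest one may not mark the centromere there. Within 2 Mb of these stretches lay 237 of the 2623 sites (9.04%, 7.997 to 10.2), against 11.3% (10.7 to 12.0) of all C4-2 RB sites outside the mitochondrial genome. The share was 44.4% (41.5 to 47.4) in C4-2-only sites with V5, 16.6% (14.6 to 18.8) in VCaP-shared sites with V5 and 2.55% (2.11 to 3.07) in VCaP-shared sites without V5. For the whole VCaP RB list it was 3.22%, and for the V5 lists 3.51% to 12.9%. The rule reads the VCaP and V5 lists, so the classes take on part of the position of those lists. Neighbouring sites are not independent, so these Wilson intervals are too narrow, and no difference between classes was tested.

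The same order of the classes held at 1 and 5 Mb. Without sites of high local background the share was 6.73% (5.82 to 7.77) in C4-2-only sites without V5, 36.1% in C4-2-only sites with V5 and 2.23% (1.82 to 2.72) in VCaP-shared sites without V5. VCaP-shared sites with V5 then had 6.14% (4.84 to 7.75), a share no longer above that of the C4-2-only sites without V5. Sites within 2 Mb of a chromosome's outermost intervals made up 8.997% of C4-2-only sites without V5, 8.88% of C4-2-only sites with V5 and 7.69% of VCaP-shared sites without V5.

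**Figure D4:**
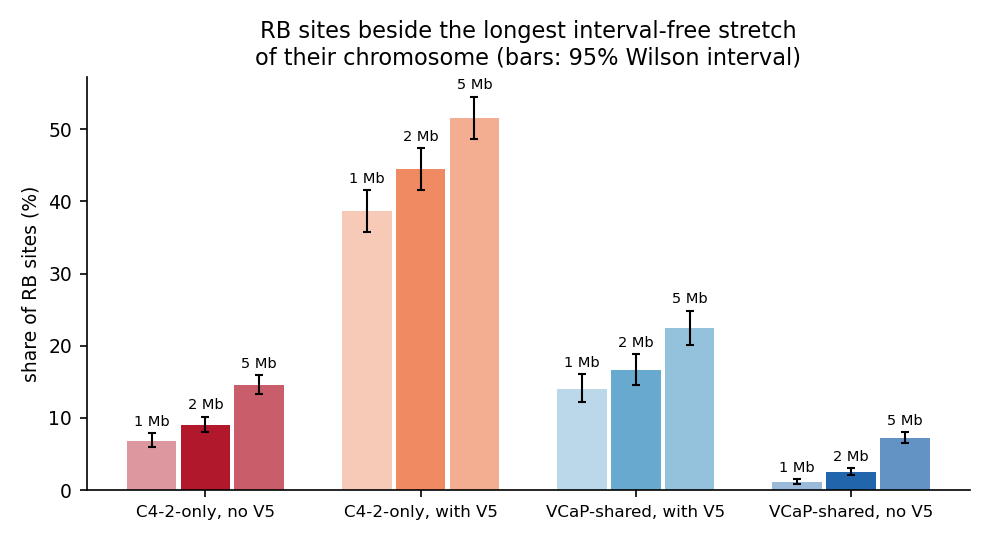
Share of RB sites (vertical axis, percent, bars with 95% Wilson intervals) within 1, 2 and 5 Mb of the longest interval-free stretch of their chromosome, by class (horizontal axis). At 2 Mb the C4-2-only sites without V5 stood at 9.04%, between C4-2-only sites with V5 at 44.4% and VCaP-shared sites without V5 at 2.55%.

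Sites beside the stretches differed from the rest in read depth. The 237 sites within 2 Mb had a median of 21 summit reads on a local background of 2.84 reads, and 66 of them (27.8%) had a high background. The 2386 sites elsewhere had 12 reads on 1.47 reads, and 17 of them (0.712%) had a high background. The median fold was 4.93 beside the stretches and 5.29 elsewhere. Of all 83 sites of high background, 66 thus lay within 2 Mb of a stretch. Reads from repeated DNA can be placed at the wrong copy, and the part that this plays was not tested. Of the 3 densest groups of sites, 1 lay within 2 Mb of the longest stretch of its chromosome. On chromosome 16, 10 sites lay between 33900385 and 33995658, at 1.29 Mb from the stretch, with folds of 2.83 to 6.005 and 3 sites of high background. On chromosome Y, 11 sites lay between 13413092 and 13490117, at 15.3 Mb from the longest stretch. They had folds of 2.22 to 5.20 and 9 sites of high background. The second stretch of chromosome Y, of 3.01 Mb, was not used for this distance. The longest one may not mark the centromere there, so 15.3 Mb need not be the distance to the centromere. On chromosome 2, 10 sites lay between 133001976 and 133038727, at 37.7 Mb from the stretch, with 6 sites of high background. There 8 C4-2-only sites with V5 but 1 VCaP RB interval also occurred. Of the 17 sites of high background farther than 2 Mb from a longest stretch, 9 were thus in the group on chromosome Y. A further 6 were in the group on chromosome 2.

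Chromosomes contributed unequally. On the X chromosome 93 of 225 C4-2 RB sites (41.3%, 35.1 to 47.9) were C4-2-only without V5, against 28.4% on the autosomes together. Away from the interval-free stretches the X share was 46.7%, against 29.4% over all C4-2 RB sites and 40.5% on chromosome 16, the highest autosome. The X chromosome held 3.55% of the C4-2-only sites without V5 and 3.35% of those with V5, against 2.13% of VCaP-shared sites with V5 and 1.64% of VCaP-shared sites without V5. The higher share on X was thus seen in both C4-2-only classes. The local background of these sites was also lower on X, with a median of 0.88 reads against 1.5 on the autosomes, where the medians of single chromosomes ran from 1.16 to 1.70. Of the 93 sites on X, 35 (37.6%) had a background at or under the floor, against 5.72% over all 2623. Their summits held a median of 10 reads against 12 on the autosomes, and the median fold was 5.49 against 5.26. The background was also lower on X in VCaP-shared sites without V5 (0.94 against 1.56 reads) and with V5 (1.18 against 1.83 reads, 26 sites on X). The 37 C4-2-only sites with V5 on X did not differ in this way, with 1.97 reads on X and on the autosomes. The part of the background in the share on X was not tested.

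Among the autosomes the share ran from 18.3% (12.2 to 26.6) on chromosome 21, with 20 of 109 sites, to 37.2% (32.0 to 42.7) on chromosome 14, with 115 of 309. Chromosome 16 had 143 of 400 (35.8%, 31.2 to 40.6), chromosome 5 had 157 of 456 (34.4%) and chromosome 1 had 302 of 891 (33.9%). Chromosome 20 had 47 of 225 (20.9%, 16.1 to 26.7) and chromosome 11 had 112 of 499 (22.4%). The number of VCaP RB intervals per C4-2 RB interval also varied. It was 0.955 on chromosome 16, the lowest of the autosomes, 1.30 on X and 1.56 on chromosome 14, against 2.37 on chromosome 20, 2.94 on chromosome 21 and 1.86 in all. Other chromosomes did not follow this order. Chromosome 13 had 2.64 at a share of 29.4%, chromosome 10 had 1.42 at 30.02% and chromosome 5 had 1.83 at 34.4%. The rule reads the VCaP list, so this is a description.

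On gene-rich chromosome 19 there were 113 of the sites and on gene-poor chromosome 18 there were 45, a ratio of 2.51, against 2.87 (434 and 151) in all C4-2 RB sites. The ratio was 1.93 in C4-2-only sites with V5, 1.67 in VCaP-shared sites with V5 and 3.74 in VCaP-shared sites without V5. On chromosome 19 the sites made up 26.0% (22.1 to 30.4) of the 434 C4-2 RB intervals and on chromosome 18 29.8% (23.1 to 37.5) of the 151, near the 28.7% of the whole list. On chromosome Y they were 32 of 128, on a median local background of 6.83 reads, while the VCaP list held 60 intervals on that chromosome. None of the 5 mitochondrial RB intervals of C4-2 was among them.

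**Figure D5:**
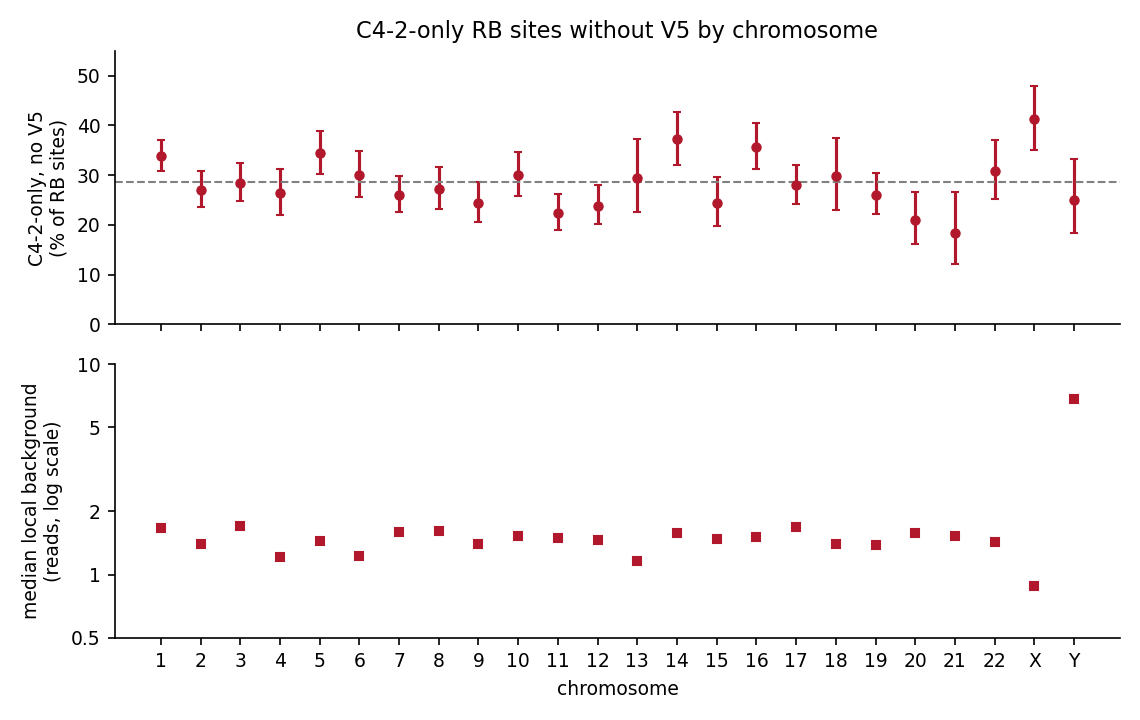
Top, C4-2-only RB sites without V5 as a percentage of all C4-2 RB sites of each chromosome (points with 95% Wilson intervals, dashed line at 28.7%). Bottom, their median local background in reads (log scale), which was 0.88 on X and between 1.16 and 1.70 on the autosomes.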

How the data were processed

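Per the submitters' processing notes, the build was hg19 and the tools included MACS2 2.1.0, BWA 0.7.9a, FastQC 0.11.9 and SAMtools 1.2. Nothing on settings, duplicate reads or control libraries is given in the sources used here. For each group the authors deposited 1 MACS2 interval list. V5 interval names say merged, whereas the C4-2 RB names point to 1 library although the labels give 2. Each deposited interval carries the authors' fold enrichment (a linear ratio), p-value and q-value as −log10 values, a score (the deposited −log10 q times 10, cut to a whole number) and the summit position. These were used only within a list.

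Reads at the summit and the local background of RB intervals were solved from the deposited fold, which includes a pseudocount of 1 read, and the deposited −log10 p, a Poisson tail. Recomputed −log10 p differed by at most 0.00016, and 99.9% of 1000 simulated RB intervals returned their reads. The simulation used the same formula as the solution, so it does not check that formula. Its backgrounds all lay below the limit for a high background, so it did not cover sites of that kind. In 2 C4-2 RB intervals, 1 of them among the 2623 sites, the solved background was 0.222 reads, below the floor. In C4-2 the lowest background common to 5 or more intervals was 0.821 reads. A background of at least 10 times that value was called high. Overlap meant at least 1 shared base, and a gap is the number of bases between 2 interval edges. Python 3.11.15 with numpy, pandas and scipy was used.

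The sites and the regions to name were chosen with earlier results of these data known. Regions named were the 10 sites of highest −log10 q, the 5 of highest fold at low background, the 3 widest, the 3 of lowest −log10 q (1 is described), the 3 nearest to the overlap limit on each side, and the 3 densest groups within 100 kb. Interval-free stretches were added after seeing the data. No test was made, since no library has a list of its own.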

Additional observations from a re-analysis of the deposited data

How the results depend on the processing

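The number of sites depended on what counts as shared and on the threshold. It was 5783 with at least 50% of both intervals required, 4295 with summits within 100 bases, 1164 with C4-2 RB intervals at −log10 q of at least 5, and 3956 with the other lists at that threshold. Counting other lists within 1 kb as shared left 1718, and without the VCaP list in the rule there were 6823 (both added after seeing the data). Leaving any 1 V5 list out of the rule gave 2623 to 2690, and the number also stayed within 1.5 times with other lists within 500 bases, without high background and away from the stretches. The median fold was 5.38, 5.33, 5.34, 6.14 and 5.35 with 50% overlap, summits, 500 bases, stricter C4-2 and stricter other lists. The ratio of chromosome 19 to 18 ran from 2.00 to 2.95, within its counting interval (1.78 to 3.54).

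Alternatives for the next 2 shares were added after seeing the data. The share beside an interval-free stretch was 7.37% with 50% overlap, 7.32% by summits, 13.8% with stricter C4-2 intervals, 6.73% without high background, 6.82% at 1 Mb and 14.6% at 5 Mb. The share with a VCaP interval within 1 kb was 23.5% with stricter C4-2 intervals, 20.5% within 500 bases and 37.6% within 10 kb.

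Planned values for transcription start sites, motifs and GC content were not run, because no genome or annotation of hg19 was used here. No paired analysis was possible because each group has 1 list and no result comes from a test. Sites with 10 or fewer summit reads limit what absence from a shallower list shows.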
